A study of Homo sapiens with 12 samples.

Results

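Expression and splicing of 9 integrin genes were followed in 2 prostate cancer cell lines: the alpha chains ITGA6, ITGA3, ITGA2, ITGA5 and ITGAV and the beta chains ITGB1, ITGB4, ITGB5 and ITGB6. A splicing event here is an exon with both of its flanking splice sites, and an event was given to an integrin gene when its strand and the lengths of its exon and introns fitted that gene, and no other, on the same chromosome in GENCODE. This gave 178 of the 114816 events counted by RNA-seq and 4 of the 2023 events counted by RASL-seq. The lines were GS689 (GS689.Li), with 3 libraries in each assay, and PC3E, with 3 libraries in each assay. Both are derivatives of the PC3 line, both carry the genotype label wild type, and both were grown in the same G418-containing medium without any treatment. RASL-seq counts pairs of probes that are ligated when they anneal side by side on a splice junction, so its counts come from chosen junctions only.

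Integrins are dimers of 1 alpha and 1 beta chain that span the plasma membrane and bind the extracellular matrix outside and adaptor proteins inside the cell. The short cytoplasmic tails carry the adaptor sites: alpha tails begin with a membrane-proximal motif, and most beta tails carry NPxY-type motifs that bind talin and kindlin. In ITGA6 and ITGA3, which form laminin receptors, an alternative exon before the last exon decides the tail: with the exon the chain ends in the A tail, and without it the last exon gives the B tail. ITGB4 pairs with ITGA6 in hemidesmosomes and has a far longer tail, which binds the cytolinker plectin. ITGB1 is the common partner of ITGA2 (collagen), ITGA3 and ITGA5 (fibronectin), while ITGB5 and ITGB6 pair with ITGAV.

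The 4 alpha tails are shown because the balance of A and B differed between the lines in ITGA6 and between the assays in ITGA3. The sequences are the coding bases from GENCODE release 29 transcripts, placed on hg19 by the deposited events, all on the plus strand. Capitals mark the codons of the membrane-proximal motif, and each sequence ends in its stop codon. The ITGA6 A tail lies at chr2:173366500-173366607, the ITGA6 B tail at chr2:173368819-173368980, the ITGA3 A tail at chr17:48165589-48165699 and the ITGA3 B tail at chr17:48166474-48166629.
ITGA6 A tail: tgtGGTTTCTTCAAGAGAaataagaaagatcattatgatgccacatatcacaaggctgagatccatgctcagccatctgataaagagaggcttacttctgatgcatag
ITGA6 B tail: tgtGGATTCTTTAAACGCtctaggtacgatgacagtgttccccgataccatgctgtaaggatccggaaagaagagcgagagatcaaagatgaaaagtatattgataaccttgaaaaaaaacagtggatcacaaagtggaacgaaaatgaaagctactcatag
ITGA3 A tail: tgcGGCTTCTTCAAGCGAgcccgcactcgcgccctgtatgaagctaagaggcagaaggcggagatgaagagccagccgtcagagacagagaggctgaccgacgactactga
ITGA3 B tail: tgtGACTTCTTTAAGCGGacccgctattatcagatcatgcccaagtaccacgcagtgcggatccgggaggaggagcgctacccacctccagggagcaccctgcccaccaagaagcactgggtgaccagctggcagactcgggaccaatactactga
The A tails encode 35 residues in ITGA6 and 36 in ITGA3, and the B tails encode 53 residues in ITGA6 and 51 in ITGA3. The A tails of both genes shared 63 of 108 aligned bases (58.3%), and the B tails shared 86 of 156 (55.1%). Within a gene the A and B tails shared 65.7% of the aligned bases in ITGA6 and 68.5% in ITGA3, with the gaps left out.

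RASL-seq depth was 615758 to 954120 counts in the GS689 libraries and 754338 to 911476 in the PC3E libraries. PC3E replicate 2 stood apart: its inclusion shares differed from those of the other PC3E libraries with a chi-square per degree of freedom of 3.1 and 4.2, against 1.5 to 1.8 for the other pairs of one line. Epithelial marker genes tested by their RASL-seq totals were called lower in GS689 in 4 of 4 cases, where 13.1% of all totals were called lower. The mesenchymal marker VIM averaged 4255 ± 122 scaled CPM (counts per 1000000 of the library, with trimmed-mean scaling) in GS689 and 185 ± 25.2 in PC3E (SD, n = 3 each). The RNA-seq table numbers its 2 sets of 3 libraries and names no line for either, so RNA-seq values are given per library as set 2 and set 1, with no test and no assignment to a line. Epithelial markers had lower RNA-seq totals in set 2 without overlap in 13 of 14 measured genes, and mesenchymal markers had higher ones in 3 of 4. Over all measured genes, 19.3% were lower and 29.3% higher in set 2 without overlap. The 1 measured fibroblast marker was higher in set 2. Of 5 prostate luminal markers only 1 had an RNA-seq event, and for it the sets overlapped. The others had no event and could not be measured. The labels do not say whether replicates are separate cultures, so p-values reflect variation among libraries that may be technical only. In these bulk libraries fewer cells of a type and less RNA per cell cannot be told apart.

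The ITGA6 A tail exon was included in about as many GS689 transcripts as it was skipped in, and in nearly all PC3E transcripts. The exon is chr2:173366500-173366629 on the plus strand, 130 bases long and partly coding, since its stop codon lies within it. Its RASL-seq inclusion, the inclusion count over the sum of inclusion and skipping counts, was 53.1%, 50.6% and 55.4% in GS689, against 97.7%, 99.1% and 96.8% in PC3E. The lines did not overlap, as was so for 23.6% of the 1124 tested events, and the libraries of each line lay within 5 points of each other.

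In counts, GS689 had 388 inclusion and 343 skipping counts in replicate 1, 357 and 348 in replicate 2, and 242 and 195 in replicate 3. PC3E had 390 and 9, 526 and 5, and 522 and 17. The B tail junction was therefore present in every library, and in PC3E it had at most 17 counts. The exact binomial 95% intervals ran from 46.9% to 60.1% over the GS689 libraries and from 95% to 99.7% over the PC3E libraries, and these cover counting error only.

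Mean inclusion was 53.0% ± 2.37 in GS689 and 97.9% ± 1.11 in PC3E (SD, n = 3 each). The difference of -44.9 points was larger than the spread between replicates (log2 odds ratio -5.38, SE 0.377, 95% interval -6.20 to -4.56; adjusted p = 8.59e-09 in the quasi-binomial model with limma moderation over 1124 events). It ranked 9 of 1124 by size. A call here needs an adjusted p below 0.05 and at least 5 points. ITGA6 was the 1 integrin event called of the 2 that could be tested. Over all tested events, 3.65% were called lower in GS689, 2.22% were called higher and 5.87% were called in either direction. Without PC3E replicate 2 the difference was -44.3 points.

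By RNA-seq the same exon was the one integrin tail exon of an alpha chain with both forms in quantity. Its length-corrected inclusion was 40.7%, 46.3% and 47.4% in set 2, against 95.3%, 98.1% and 95.1% in set 1. The sets did not overlap, and all libraries of set 2 lay far below all libraries of set 1. Behind these values stood 1343 to 1773 counts in the libraries of set 2 and 1161 to 1787 counts in those of set 1. Over all 6 libraries the assays lay close together for this exon, with 72.6% in the pooled RASL-seq counts and a median of 71.3% by RNA-seq.

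**Figure D1:**
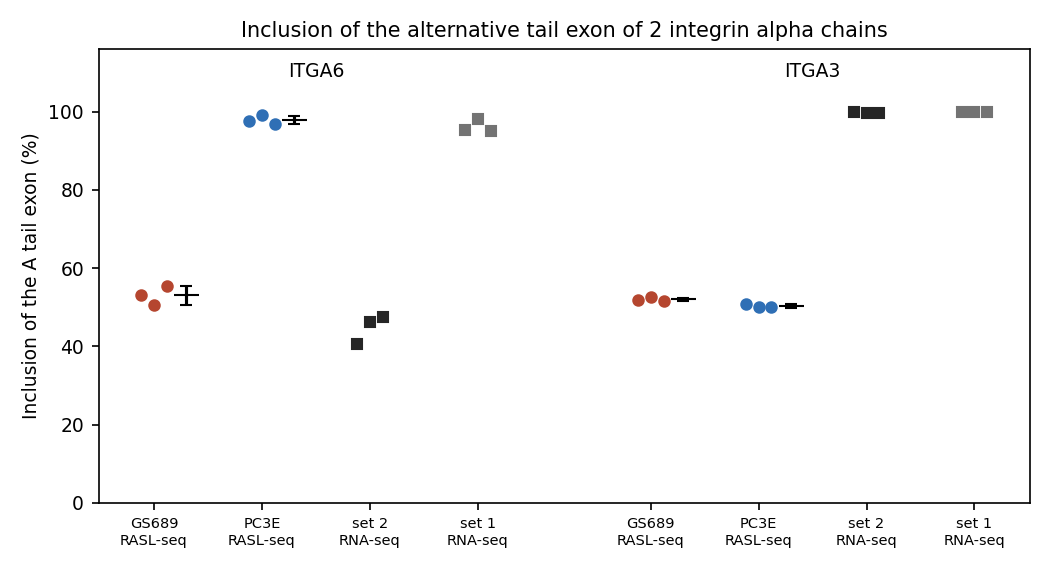
Inclusion (%) of the A tail exon of ITGA6 and ITGA3 in each library; circles are RASL-seq libraries by line with mean and SD beside them, and squares are RNA-seq libraries by numbered set, whose line the table does not give. ITGA6 inclusion lies between 50.6% and 55.4% in GS689 and above 96% in PC3E, whereas ITGA3 lies near 50% in RASL-seq and above 99% in RNA-seq.

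The 3 tested events of other genes that followed the ITGA6 exon most closely, by the root mean square difference of inclusion over the 6 RASL-seq libraries, were a 27-base exon of FIP1L1 (12.1 points), a 93-base exon of MAP2 (12.7 points) and a 39-base exon of UTRN (13.0 points). FIP1L1 is a subunit of the polyadenylation complex, MAP2 binds microtubules, and UTRN (utrophin) links actin to the membrane. UTRN averaged 39.0% ± 2.63 in GS689 and 86.3% ± 3.08 in PC3E (SD, n = 3 each; adjusted p = 2.05e-08, quasi-binomial model with limma). FIP1L1 averaged 60.4% ± 11.5 in GS689 and 85.3% ± 3.34 in PC3E, and MAP2 59.2% ± 4.95 in GS689 and 83.1% ± 7.96 in PC3E. These last differences were not called (adjusted p = 0.159 and 0.247 in the same limma-moderated model), at 10.3 to 17 counts per library on average.

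The ITGA3 A tail exon did not differ detectably between the lines, and its assays disagreed on the level. The exon is chr17:48165589-48165730 on the plus strand, 142 bases long and partly coding. RASL-seq inclusion was 51.9%, 52.5% and 51.6% in GS689, against 50.8%, 50% and 50% in PC3E, so the lines did not overlap here either. The counts were few, with 59 to 160 per library in GS689 and 20 to 78 in PC3E. The means were 52.0% ± 0.501 in GS689 and 50.3% ± 0.489 in PC3E (SD, n = 3 each). The difference of 1.71 points was not called (adjusted p = 0.923, quasi-binomial model with limma), and the 95% interval of its log2 odds ratio, -0.53 to 0.72, leaves room for a shift in either direction.

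RNA-seq gave ITGA3 an almost pure A tail. Inclusion was 99.98%, 99.8% and 99.6% in set 2, against 99.9%, 99.97% and 99.9% in set 1, and the sets overlapped. Skipping had 1, 10 and 18 counts in set 2 and 3, 1 and 4 in set 1, beside at least 6794 inclusion counts in every library. The RASL-seq level thus lay 48.5 points below the RNA-seq level, where the median absolute gap over the 1640 events counted in both assays was 4.61 points. A gap at least as large occurred in 95 of these 1640 events (5.79%). In RASL-seq the inclusion and skipping counts of ITGA3 differed by no more than 10% of their sum in all 6 libraries, as they did in 11 of 1477 events with enough counts. The cause of this gap was not tested.

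**Figure D2:**
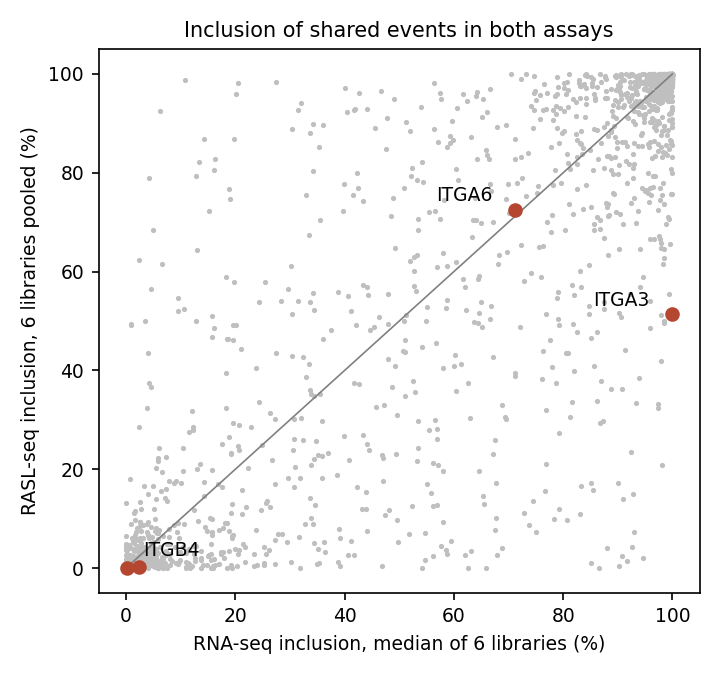
Inclusion (%) of 1640 shared events, with the median of the 6 RNA-seq libraries across and the pooled counts of the 6 RASL-seq libraries up; gray points are all events, red points are integrin events, and the line marks equal values. ITGA6 and both ITGB4 events lie near the line, and ITGA3 lies 48.5 points below it.

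The measured tail exons of the other alpha chains were almost always included. In the exon with the predicted membrane segment, or after it, ITGA5 and ITGAV had 1 and 2 events with inclusion medians of 99.8% to 100%, and none was measured for ITGA2. All 9 ITGA2 events lay above 99% at the median of the 6 libraries.

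Among the beta chains, the tail exon of ITGB1 that could switch it to the muscle form was almost never used. This D exon spans chr10:33195991-33196071 on the minus strand, and its coding bases to the stop, chr10:33195997-33196071, contain both NPxY-type motifs of the D tail, in capitals:
ITGB1 D exon: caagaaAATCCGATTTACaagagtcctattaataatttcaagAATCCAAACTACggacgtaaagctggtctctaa
It encodes 24 residues before its stop. Inclusion was 0.0227%, 0.0548% and 0.00669% in set 2, against 0.0435%, 0.0105% and 0.0113% in set 1. These values stand on 1 to 7 inclusion counts beside at least 4959 skipping counts in every library, and the sets overlapped. The ITGB1 exon of 167 bases with its membrane segment and the ITGB5 tail exon, also of 167 bases, each had a median inclusion of 100%. ITGB6 had no tail event.

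Of the 34 ITGB4 events, 27 lay in the tail, in 14 exons, and 25 of these had at least 10 counts in every RNA-seq library. Of the 25, 18 had medians of 96.1% to 100%. Another 3 had medians below 5%, among them an exon of 112 bases at 0.802%, with overlap of the sets. The other 4 had a median inclusion between 5% and 95%. One is of an optional exon of 159 bases at chr17:73751136-73751294 on the plus strand, which is wholly coding and lengthens the long tail. It is shown because its use differed between the RNA-seq sets:
ITGB4 159-base exon: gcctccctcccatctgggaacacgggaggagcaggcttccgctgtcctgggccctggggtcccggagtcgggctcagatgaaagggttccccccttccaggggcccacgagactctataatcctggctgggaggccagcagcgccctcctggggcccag
Joined to the exon that starts at 73751782, it was included in 4.16%, 5.40% and 3.76% in set 2, against 0.503%, 0.7497% and 0.831% in set 1. Joined to the exon that starts at 73752510, it was included in 14.97%, 25.1% and 18.6% in set 2, against 2.03%, 4.06% and 3.88% in set 1. The sets did not overlap for either junction, and both events share the upstream junction of this exon, so they are not independent. The skipping junction of the second event also leaves out the exon of 150 bases that starts at 73751782. That event had as few as 96 counts in a library, against at least 564 for the first. The 150-base exon, measured against the same skipping junction, ranged from 85.7% to 89.5% in set 2 and from 85.9% to 90.2% in set 1, with overlap.

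The RASL-seq counts held almost none of these inclusions. For the 159-base exon they gave 1 inclusion count of 349 in GS689 and 1 of 1084 in PC3E, for which exact upper limits of the 95% interval are 1.59% and 0.513%. Both limits lie below every RNA-seq value of set 2 for this exon, whichever line set 2 is. The pooled RASL-seq level differed from the RNA-seq median by -2.16 points. A gap at least as large occurred in 62.7% of the 1640 shared events, whose median absolute gap was 4.61 points. The cause of this small gap was not tested. The other ITGB4 exon probed, of 210 bases at chr17:73749846-73750055, had 0 inclusion counts of 131 in GS689, with an exact upper limit of 2.78%, and 0 of 497 in PC3E, with an exact upper limit of 0.739%. Counted as 3 counts of the total, a count of 0 allows up to 2.29% in GS689 and 0.604% in PC3E. Neither had enough inclusion counts for a test. By RNA-seq the 210-base exon was at 0%, 0.0542% and 0.308% in set 2, against 0.165%, 0.339% and 0.171% in set 1. For the 210-base exon a difference between the lines was not detectable by RASL-seq at this depth.

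A second variable stretch of ITGB4 lay at the membrane. Its exon of 107 bases, chr17:73733619-73733725, holds the whole predicted membrane-spanning window (residues 714 to 732 of the longest transcript). The next exon, chr17:73735753-73735786 on the plus strand, has only 34 bases:
ITGB4 34-base exon: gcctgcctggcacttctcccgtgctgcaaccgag
One junction leaves out both, which removes 141 bases or 47 codons and keeps the reading frame. Measured against that junction, inclusion of the 107-base exon was 96.3%, 98.01% and 97.2% in set 2, against 93.3%, 82.0% and 87.7% in set 1. The 34-base exon gave 93.8%, 96.5% and 95.1% in set 2, against 88.2%, 70.7% and 81.9% in set 1. The joint skipping junction had 8, 7 and 6 counts in set 2 and 31, 251 and 105 in set 1, and its share was larger in every library of set 1 than in any of set 2. Both values use the same skipping counts and are 1 observation. Against the junction that skips only the 107-base exon, its medians were 94.5% in set 2 and 96.7% in set 1. That event had at least 797 counts per library, and the sets overlapped. Against the junction that skips only the 34-base exon, on at least 469 counts per library, the median over all libraries was 100%, with overlap.

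**Figure D3:**
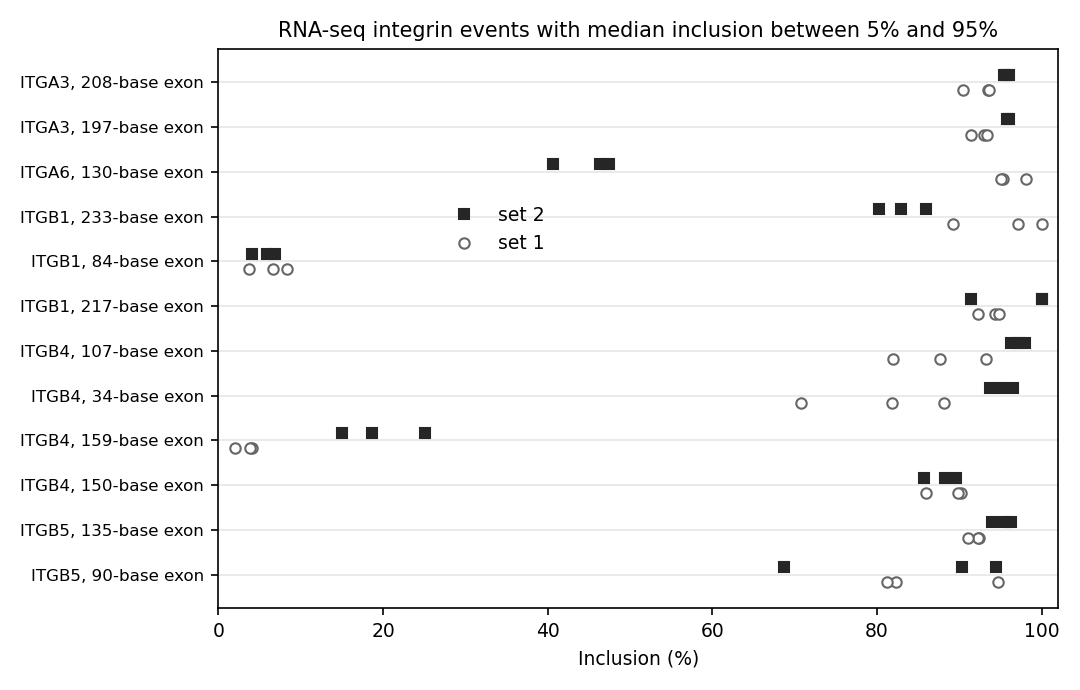
RNA-seq inclusion (%) of the 12 integrin events with a median between 5% and 95%, with 1 row per event; filled squares are the 3 libraries of set 2 and open circles the 3 of set 1. The ITGA6 130-base exon has the widest gap, with set 2 between 40.7% and 47.4%. The ITGB4 159-base exon lies at 14.97% to 25.1% in set 2 and below 5% in set 1. Its row is measured against a junction that also leaves out the 150-base exon.

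Outside the tails, few integrin exons varied. In ITGA3 the exons of 208 bases (chr17:48148675-48148882) and 197 bases (chr17:48149350-48149546), in the extracellular part, share a junction that skips both, for 405 bases or 135 codons. The 208-base exon was included in 96.0%, 95.7% and 95.4% in set 2, against 93.5%, 90.5% and 93.6% in set 1. The 197-base exon had 95.7% to 96.1% in set 2 and 91.4% to 93.3% in set 1. Both were higher in set 2 without overlap against that shared junction. Against the junctions that skip only 1 of them, on at least 4599 counts per library, the medians were 99.7% and 100%, with overlap.

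In ITGB5 an extracellular exon of 135 bases was included in 95.5%, 94.0% and 96.2% in set 2, against 92.4%, 92.3% and 91.0% in set 1, again without overlap. Measured with other flanking exons, on at least 291 counts per library, this 135-base exon had medians of 98.3% to 100%, each with overlap. A neighbouring 90-base exon ranged from 68.7% to 94.4% in set 2 and from 81.2% to 94.7% in set 1, in an event with as few as 33 counts. In its events with at least 199 counts per library, median inclusion of this 90-base exon was 95.2% to 98.9%, each with overlap. In ITGB1 the 3 variable events were of exons not annotated as coding. Each of these values is measured against a rare junction, on few counts. The 233-base exon, against a junction that also leaves out its 86-base neighbour, had 85.9%, 82.9% and 80.3% in set 2, against 100%, 89.2% and 97.1% in set 1, without overlap but on as few as 35 counts per library. Against the junction that joins the 86-base exon to the exon at 33224420, with at least 3188 counts per library, it was included in only 0.888%, 1.24% and 1.05% in set 2, against 1.34%, 1.01% and 1.25% in set 1, with overlap. The 84-base exon ranged from 4.05% to 6.90% in set 2 and from 3.77% to 8.38% in set 1, and the 217-base exon from 91.4% to 100% in set 2 and from 92.3% to 94.9% in set 1, both with overlap and on as few as 45 counts. Against the junction between 33224486 and 33247073, with at least 2572 counts per library, the 84-base exon was at most 0.180% in either set. Against the same junction the 217-base exon had 2.26%, 2.37% and 2.65% in set 2, against 1.67%, 1.68% and 1.74% in set 1, without overlap.

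Of the 178 integrin events, 158 had at least 10 counts in every RNA-seq library, and all 6 ITGB6 events were among the 20 that did not. Median inclusion was above 95% in 135, below 5% in 11 and between them in 12. The sets did not overlap in 17 of the 158 (10.8%), 10 higher and 7 lower in set 2, where the share over all 96069 such events was 9.27%, with set 2 higher in 4.22% and lower in 5.05%. Among the 12 variable events it was 8 (66.7%), 6 higher and 2 lower in set 2, against a share of 22.8% over 14228 variable events of all genes, with set 2 higher in 9.66% and lower in 13.1%. Several of these 8 share a junction, as described above. The median absolute difference between set medians was 6.81 points for the 12 events and 4.31 points for all variable events. In the 9 further events without overlap, outside the band, it was at most 3.58 points.

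Integrin levels by RASL-seq were taken as inclusion plus skipping counts summed over a gene and scaled to CPM. ITGA6 and ITGA3 each had only the A tail exon event, and ITGB4 had the events of its 159-base and 210-base exons. ITGB4 had 160, 245 and 196 scaled CPM in GS689, against 314, 1054 and 563 in PC3E. Every GS689 library lay below every PC3E library, and the PC3E libraries spread over a wide range. The means were 200 ± 42.9 in GS689 and 644 ± 377 in PC3E (SD, n = 3 each). The log2 fold change of -1.53 (SE 0.449) passed the test (adjusted p = 0.0398, limma-voom over 1317 genes and unnamed events), which is 2.89-fold higher in PC3E. Of all totals tested, 29.7% passed and 13.1% were lower in GS689. The call was lost without GS689 replicate 1 (adjusted p = 0.136), GS689 replicate 2 (0.126), GS689 replicate 3 (0.0627) or PC3E replicate 3 (0.101) in the same limma-voom fit, and without any filter on low counts. It held without PC3E replicate 2, at -1.10.

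ITGA6 had 750, 852 and 707 scaled CPM in GS689, against 471, 689 and 604 in PC3E. The lines did not overlap, as was so for 46.4% of all totals. The means of 770 ± 74.5 in GS689 and 588 ± 110 in PC3E (SD, n = 3 each) gave a log2 fold change of 0.41 (SE 0.16) that missed the threshold (adjusted p = 0.078, limma-voom). Without PC3E replicate 2 it was 0.52 and passed (adjusted p = 0.0135). The sign depended on the junction: skipping counts alone gave 4.88 (adjusted p = 1.29e-05) and inclusion counts alone -0.46 (adjusted p = 0.0619), both by limma-voom. ITGA6 totals hold the A tail exon event alone, so these fits follow its skipping and inclusion junctions and give no separate measure of level.

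ITGA3 had 164, 71.3 and 104 scaled CPM in GS689, against 69.6, 101.2 and 22.4 in PC3E. The lines overlapped, and the log2 fold change of 1.03 (SE 0.531) was not called (adjusted p = 0.184, limma-voom). Its mean of 113 ± 47.1 in GS689 and 64.4 ± 39.6 in PC3E (SD, n = 3 each) rests on 20 to 160 counts per library.

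**Figure D4:**
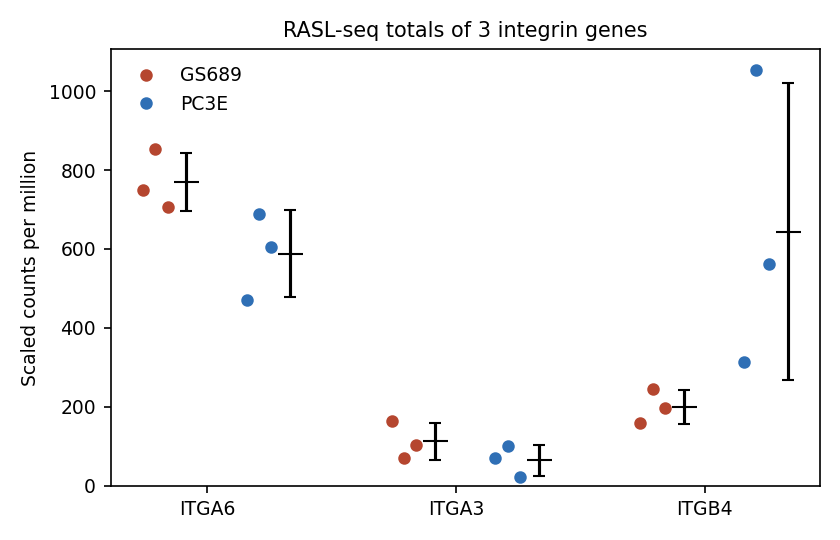
RASL-seq totals of ITGA6, ITGA3 and ITGB4 in scaled CPM; points are libraries, with the mean and SD of each line (n = 3) beside them. GS689 lies at 160 to 245 for ITGB4, below all PC3E libraries, and the lines overlap for ITGA3.

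RNA-seq covered all 9 genes. Totals are sums over a gene's events in counts per 1000000 of the table, whose totals are not depth because 1 read can count in several events. In 6 of the 8 genes with at least 10 counts in every library set 2 was higher without overlap, in 1 it was lower, and ITGAV overlapped. Over all 11193 such genes the sets did not overlap in 48.6%, with set 2 higher in 29.3% and lower in 19.3%. The median log2 ratio of set 2 to set 1 over all genes was 0.12, so ratios are read against that shift.

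Among the laminin receptor chains, ITGA6 had 270, 279 and 174 in set 2, against 119, 110 and 160 in set 1. ITGA3 had 2347, 2647 and 2228 in set 2, against 1590, 1444 and 1578 in set 1. ITGB4 went the other way, with 205, 329 and 226 in set 2, against 408, 1211 and 704 in set 1. On this scale the alpha chains were higher and ITGB4 was lower in set 2, each without overlap. In counts as listed, without division by the table total, ITGA6 overlapped, with 16663 as the lowest of set 2 and 19388 as the highest of set 1.

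The collagen receptor chain ITGA2 had 181, 111 and 88.3 in set 2, against 28.0, 15.4 and 37.0 in set 1. The fibronectin receptor chain ITGA5 had 63.2, 71.1 and 69.9 in set 2, against 31.8, 45.4 and 42.8 in set 1. Their partner ITGB1 had 3635, 2687 and 2682 in set 2, against 2230, 1309 and 1842 in set 1. All 3 were higher in set 2 without overlap.

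For the ITGAV receptors, ITGAV itself had 59.4, 48.2 and 36.3 in set 2, against 51.1, 30.1 and 48.5 in set 1. ITGB5 had 222, 198 and 219 in set 2, against 195, 90.0 and 149 in set 1, without overlap on this scale but with overlap in counts as listed and when each event was corrected for its length. ITGB6, which activates latent TGF-beta as a dimer with ITGAV, had sums of only 6, 3 and 13 counts in set 2, against 272, 652 and 753 in set 1. Its set 2 libraries all lay below its set 1 libraries, though 2 of them fell under the 10-count minimum.

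**Figure D5:**
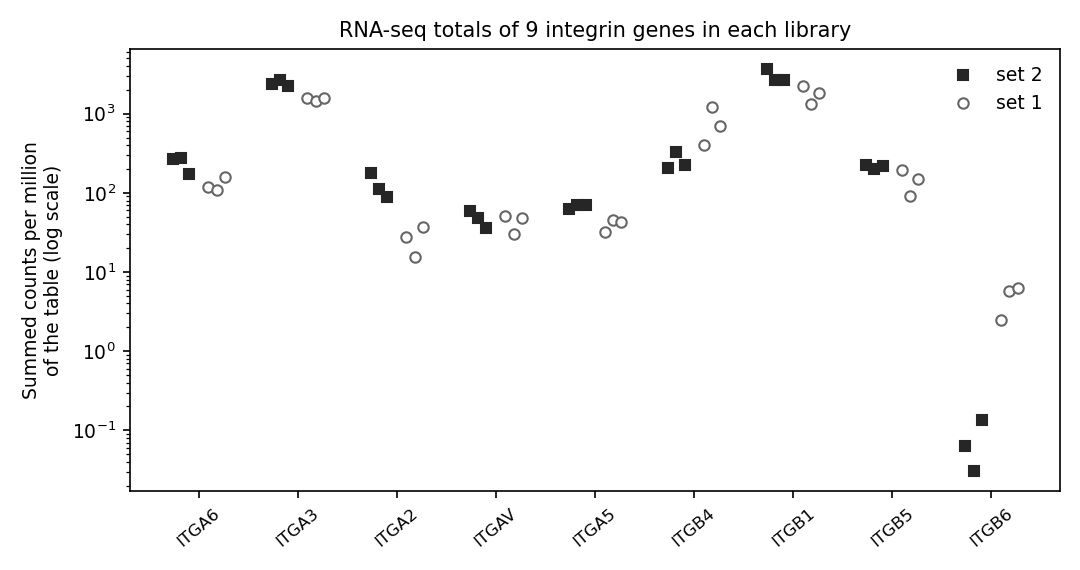
RNA-seq totals of the 9 integrin genes on a log scale, in summed counts per 1000000 of the table; filled squares are the 3 libraries of set 2 and open circles the 3 of set 1. ITGB4 and ITGB6 are lower in set 2 and ITGAV overlaps, while the other 6 genes are higher in set 2 on this scale.

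Levels of different genes can be compared only per length, here as the median over a gene's events of counts per 100 effective bases, scaled to 1000000 counts of the table. In set 2 the order of median levels was ITGB1 (52.5), ITGA3 (29.02), ITGA6 (11.6), ITGA2 (5.75), ITGA5 (4.83), ITGB5 (3.74), ITGB4 (3.57), ITGAV (2.404) and ITGB6 (0.00592). Neighbours whose libraries overlapped in set 2 were ITGA6 and ITGA2, ITGA2 and ITGA5, and ITGB5 and ITGB4. Beyond its neighbours, ITGB4 (3.47 to 5.70) also overlapped ITGA5 (3.98 to 4.94) and ITGA2 (4.14 to 9.57) in set 2. In set 1 it was ITGB1 (38.2), ITGA3 (17.9), ITGB4 (11.5), ITGA6 (5.29), ITGB5 (2.77), ITGA5 (2.52), ITGAV (2.27), ITGA2 (1.46) and ITGB6 (0.508). There ITGA3 and ITGB4 overlapped, as did ITGB4 and ITGA6, and the run from ITGB5 through ITGA5 and ITGAV to ITGA2. ITGB1 stood first and ITGB6 last in both sets without overlap with their neighbours. ITGB4 stood above ITGA6 in set 1 and below it in set 2.

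Of 56 genes of integrin adhesion (tail binders, scaffolds and kinases), 7 had RASL-seq events and 5 had totals that could be tested. ZYX, which encodes the focal adhesion protein zyxin, was the 1 that rose, with 5923 ± 2060 scaled CPM in GS689 and 2606 ± 986 in PC3E (SD, n = 3 each; log2 fold change 1.20, SE 0.315, adjusted p = 0.0261, limma-voom), and none fell, where 16.6% of all totals were higher in GS689. The median log2 fold change of these 5 was 0.20, beside -0.01 over all totals. None of the 27 matrix ligand genes and none of 17 other integrin subunits had a RASL-seq event. By RNA-seq, 25 of 55 measured adhesion genes were higher and 5 lower in set 2 without overlap, with a median log2 ratio of 0.38. Over all genes 29.3% were higher and 19.3% lower. The matrix ligands gave 14 higher and 2 lower of 21, with a median log2 ratio of 0.73, both beside 0.12 over all genes.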

How the data were processed

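Per the labels' protocols, Trizol RNA was made into TruSeq Stranded Total RNA libraries; the labels give polyA RNA. The submitters' processing notes name STAR 2.5.2a, kallisto 0.43.0 and hg19. The authors deposited 1 table of count pairs per event for RASL-seq and 1 table of inclusion and skipping counts with effective lengths for RNA-seq. Of each RASL-seq pair the first count was read as inclusion of the upstream junction, since its share correlated with RNA-seq inclusion (r = 0.87 over 1640 events). RASL-seq events are all on the plus strand, and ITGA5, ITGB1, ITGB5 and ITGB6 lie on the minus strand. RNA-seq inclusion was corrected for the deposited lengths. Unused columns of per-sample values numbered 0.

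Events were named by structure from GENCODE release 29, on another build; no coordinate was converted, and positions are hg19, counted from 1. This named 95.6% of RASL-seq and 95.1% of RNA-seq events; 1 further event also matched a second gene and was left out. Tails begin at the exon with the most hydrophobic window of 19 residues.

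RASL-seq inclusion was tested by a quasi-binomial model with dispersions moderated by limma 3.58.1 (R 4.3.3), with at least 10 counts on average and 10 of the rarer form, and totals by limma-voom with trimmed-mean scaling, both with Benjamini-Hochberg adjustment over all features. Both were tested on simulated data. The named genes were all 9 members. Events given by value were the RASL-seq events, the tail events and others with median inclusion of 5% to 95%. Most tail events above 95% and the 112-base ITGB4 exon are given only as medians or ranges. RNA-seq events under 10 counts in any library are not given by value. Tests planned for RNA-seq should the table name lines were not run. Members and lists were chosen with earlier results of these data known. Splicing results of the adhesion list are not reported here.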

Additional observations from a re-analysis of the deposited data

How the results depend on the processing

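The ITGA6 exon kept its direction and call, and the ITGA3 exon stayed uncalled, under every alternative run. Inclusion calls numbered 66, and 28 with limma on the log2 ratio at pseudocount 0.5; total calls numbered 391, and 249 from skipping counts alone. ITGB4 totals missed the threshold without a filter (log2 -1.54, adjusted p = 0.0655, limma-voom). ITGA6 totals were 4.88 from skipping counts alone and -0.46 from inclusion counts alone, which are the separate junctions of its A tail exon event. Leaving out 1 library gave 46 to 86 inclusion calls, 281 to 493 total calls, -46.0 to -43.7 points for ITGA6, 1.44 to 1.99 for ITGA3, and totals of 0.25 to 0.52 for ITGA6, 0.38 to 1.45 for ITGA3 and -1.97 to -1.10 for ITGB4. Same-numbered libraries did not deviate together (correlations 0.0371, 0.00378 and 0.034; 2 of 6 libraries correlated best with their own number). With the replicate block there were 88 inclusion and 464 total calls, and ITGA6 totals passed (0.40, adjusted p = 0.0419, limma-voom). Raw RNA-seq counts without lengths put the ITGA6 exon at medians of 63.3% in set 2 and 97.6% in set 1. Depth limits the RASL-seq tests of the ITGA3 exon and the ITGB4 210-base exon, and RNA-seq values bear no line.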

Other observations

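Of the 17 other integrin subunits, 8 had RNA-seq events, all 8 with at least 10 counts in every library. Of these, 2 were higher and 3 lower in set 2 without overlap, where 29.3% of all genes were higher and 19.3% lower. The widest separations were chosen after their values were seen. ITGA1, a collagen receptor chain that pairs with ITGB1, had summed counts of 2030, 1606 and 1250 in set 2, against 16, 15 and 42 in set 1. ITGB2, the beta chain of leukocyte integrins, had 112, 226 and 140 in set 2, against 1033, 3307 and 1555 in set 1. Of the 4 haematopoietic markers only 1 had an RNA-seq event, and it did not reach 10 counts in every library. The others could not be measured.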
